A study of Mus musculus with 10 samples.

Results

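Messenger RNA of the enzymes that write and erase DNA methylation was measured in 10 mouse tumours, 5 labelled ATM-KO and 5 labelled ATM-WT. The 7 genes described are Uhrf1, Dnmt1, Dnmt3a, Dnmt3b, Tet1, Tet2 and Tet3. They were chosen by symbol for their role, and all 7 had a row among the 23086 genes of the deposited table. The tumours were labelled as urothelial tumours of BBN963, a bladder carcinoma cell line named for the carcinogen BBN, in mice. Tumours of both groups were harvested at 500 mm3, and ATM, the kinase that signals DNA double-strand breaks, was knocked out in the first group only, per the labels. The mouse strain, age and sex, the lesion in Atm, the number of knockout clones and whether each tumour came from its own animal are not stated in the labels. The p-values therefore measure only the spread between these samples.

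Methyl groups on DNA sit mostly on the cytosine of CpG, a cytosine followed by a guanine. DNMT3A and DNMT3B place new marks. DNMT1 copies marks to the new strand after replication, and UHRF1 recognises half-methylated CpG and brings DNMT1 there. TET1, TET2 and TET3 oxidise methylcytosine, the first step of active removal. These are levels of messenger RNA, and DNA methylation itself was not measured in the files used here.

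Levels are normalized counts, the authors' read counts scaled to make libraries comparable. Each library summed to between 20.2 and 22.3 M (M, mega). The spacing of low values gave a rough depth of 21.2 to 28.4 M reads in ATM-KO libraries, and of 20.6 to 25.4 M in ATM-WT libraries other than A2, with 8.82 M. Atm messenger RNA overlapped between the groups, at 312 to 659 in ATM-KO libraries and 311 to 768 in ATM-WT libraries, so the level of this transcript gives no check of the knockout label. The labelled tissue was checked against 20 urothelial and epithelial markers. Their summed level was 2911 to 4748 in ATM-KO libraries and 91412 to 248527 in ATM-WT libraries. All 19 markers tested were lower in ATM-KO, and Upk3a, Upk3b (uroplakins of the urothelial surface) and Grhl3 (an epithelial transcription factor) were listed at 0 in every ATM-KO library. The ATM-KO tumours thus went largely without the defining markers of their label. In bulk tissue, fewer cells of a type and less RNA per cell cannot be told apart, and this touches every difference below.

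Maintenance genes were higher in ATM-KO, while Dnmt3a and all 3 TET genes were lower. Fold changes are differences (ATM-KO minus ATM-WT) in log2(normalized count + 1), a scale that understates changes of low genes. They carry the standard error of a limma fit over 16517 genes, and a gene was called at an adjusted p under 0.05. Of the 7 genes, 2 rose, 4 fell and Dnmt3b was not called. In the same fit 46.4% of all genes tested were called, 22.1% higher and 24.3% lower, with a median log2 fold change of 0.00. Groups had no overlap in 6 of the 7 genes and in 35.2% of all genes tested. Quantile normalization moved the median of all genes to 0.15 and their split to 4514 higher and 3319 lower, against 3649 and 4017. No direction of the 7 genes turned with it.

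**Figure D1:**
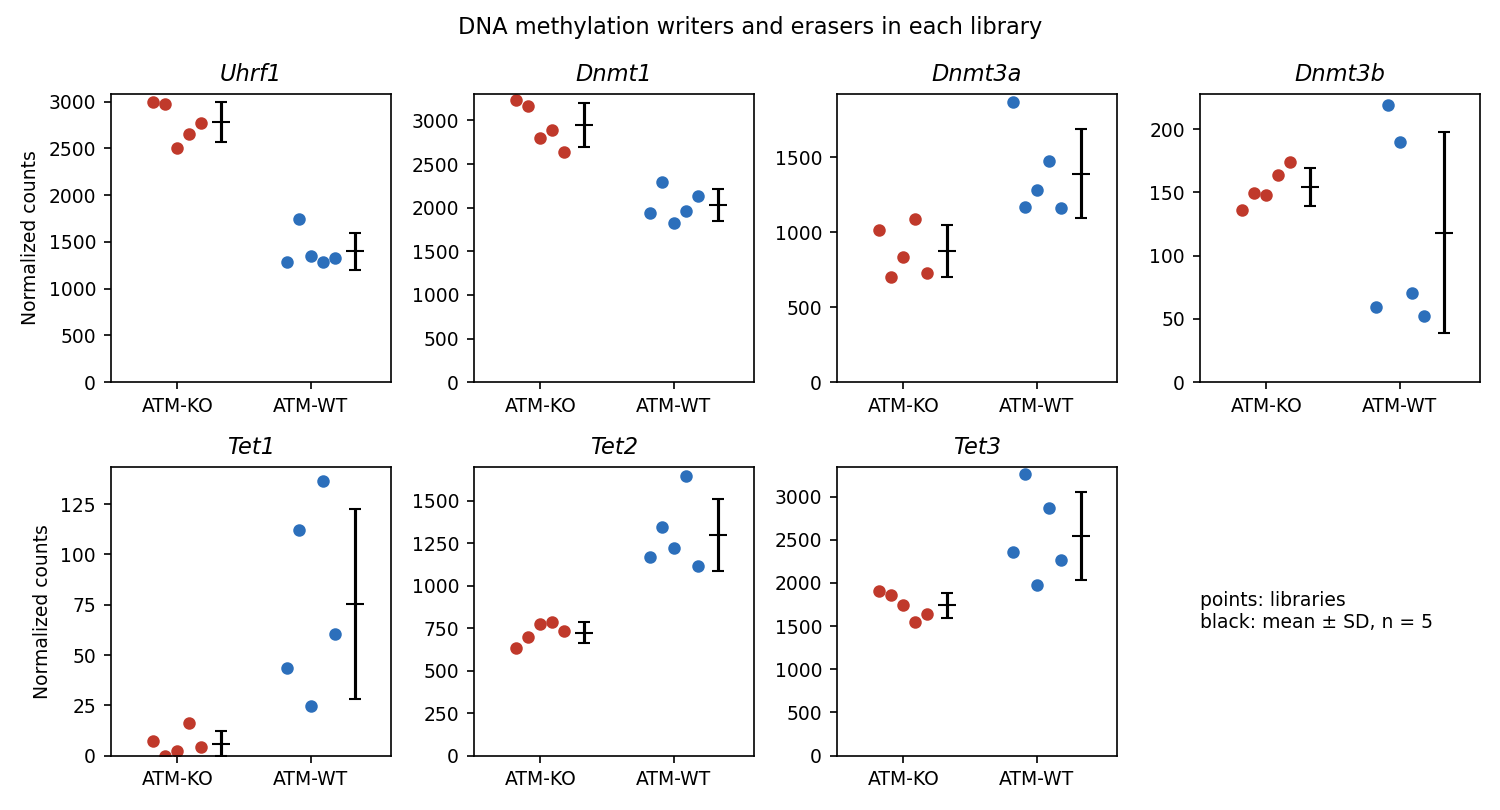
Normalized counts of each gene in each library, with the ATM-KO libraries on the left of each panel and the ATM-WT libraries on the right. Points are libraries, and black bars are the mean ± SD of 5. The groups overlap in Dnmt3b, where 2 ATM-WT libraries lie above and 3 below all ATM-KO libraries.

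Uhrf1 was the member with the smallest p. Its normalized counts in A11 to A15, the ATM-KO libraries, were 2998, 2979.8, 2502, 2649 and 2768, and in A1 to A5, the ATM-WT libraries, they were 1285, 1744, 1344, 1290.05 and 1332. Every ATM-KO library was above every ATM-WT library, and 4 of the 5 ATM-WT libraries lay close together, with A2 above them. The means were 2779 ± 213 in ATM-KO and 1399 ± 195 in ATM-WT (SD, n = 5 each), a log2 fold change of 1.00 ± 0.10 (limma adjusted p = 1.0e-05). That is about 2.00-fold, with a 95% interval of 0.77 to 1.22 on the log2 scale.

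Dnmt1 rose by less. Its normalized counts were 3238, 3167, 2794, 2892 and 2634 in ATM-KO libraries A11 to A15, and 1933, 2289, 1829, 1963 and 2134 in ATM-WT libraries A1 to A5. The groups did not overlap, although the lowest ATM-KO library (A15) and the highest ATM-WT library (A2) were near each other. Dnmt1 averaged 2945 ± 254 in ATM-KO and 2029.5 ± 182 in ATM-WT (SD, n = 5 each), which gave a log2 fold change of 0.54 ± 0.09 (limma adjusted p = 4.9e-04). Of all genes tested, 48.6% had a log2 fold change of larger size, so the Dnmt1 difference was of ordinary size for this comparison.

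The ratio of the pair moved as well. Taken within each library, the log2 ratio of Uhrf1 over Dnmt1 was -0.16 to 0.07 in ATM-KO and -0.68 to -0.39 in ATM-WT. The groups did not overlap, and the means of -0.08 ± 0.09 in ATM-KO and -0.54 ± 0.12 in ATM-WT (SD, n = 5 each) differed by 0.46. An exact two-sided permutation test over all splits of 5 against 5 gave p = 0.0079, the smallest these splits can give, and 0.015 after Benjamini-Hochberg adjustment over the 11 ratios computed.

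Both genes are known to be transcribed most around S phase, so they were set beside 34 DNA replication genes, a list chosen with earlier results of these tumours known. Of these, 33 rose and 0 fell, with a median of 1.03 against 0.00 over all genes tested and 22.1% of all genes called higher. Gins4, a subunit of the helicase complex, was the one not called (0.23 ± 0.10, limma adjusted p = 0.070). Rising members included Chaf1a, a histone chaperone at the fork (2208 ± 155 in ATM-KO and 864 ± 107 in ATM-WT). The helicase genes Cdc45 (1043 ± 135 and 358 ± 35.2), Gins2 (1916 ± 55.4 and 611 ± 160) and Mcm4 (2840.1 ± 346 and 1143 ± 197) rose too, each given as ATM-KO and then ATM-WT, mean ± SD of 5. The Uhrf1 fold change lay in the middle of this list, with 17 of the 34 genes above it. Dnmt1 lay near its lower end, with 32 above it.

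Relative to the mean of those replication genes in the same library, the log2 level of Uhrf1 was 0.82 ± 0.06 in ATM-KO and 0.84 ± 0.13 in ATM-WT (SD, n = 5 each). The difference of -0.02 was within the spread of either group (exact permutation p = 0.72, adjusted p = 0.72). The same measure for Dnmt1 was 0.75 to 1.00 in ATM-KO and 1.28 to 1.58 in ATM-WT, without overlap. Dnmt1 thus fell by 0.48 relative to the replication genes (exact permutation p = 0.0079, adjusted p = 0.015), while its own level rose. The replication genes themselves rose, with a median log2 fold change of 1.03, so a gene of unchanged level would also fall by this measure. The p-values of these ratios therefore do not test a change in the level of a member itself.

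**Figure D2:**
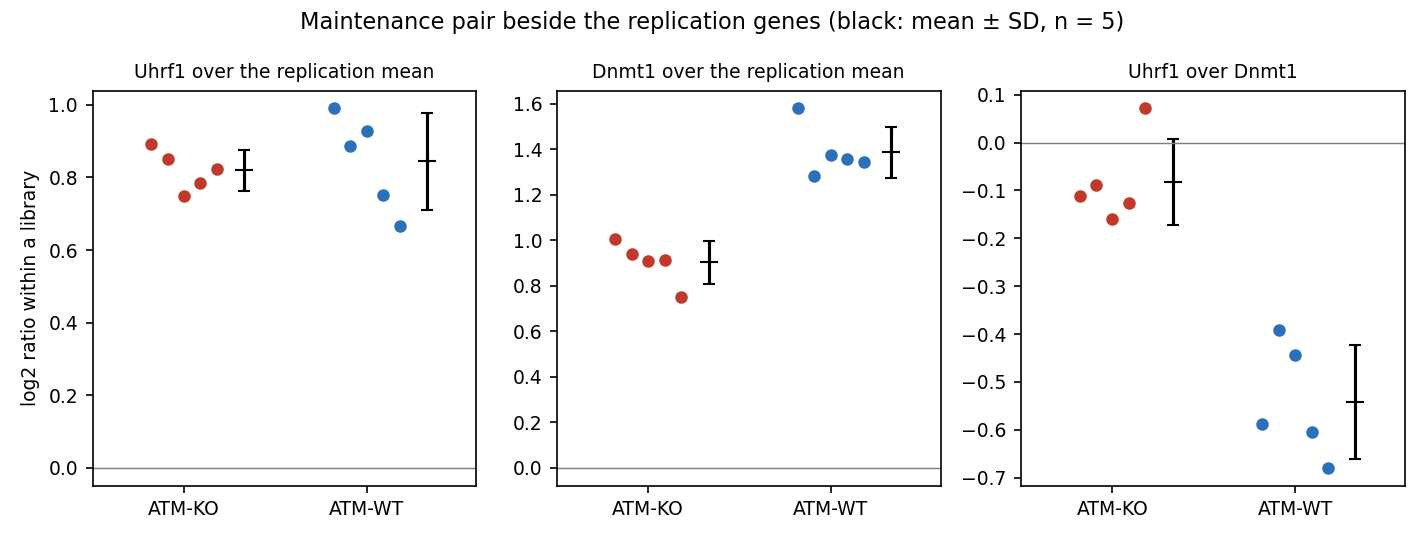
Log2 ratios within each library of Uhrf1 and of Dnmt1 over the mean of 34 replication genes, and of Uhrf1 over Dnmt1, with ATM-KO left of ATM-WT. Black bars are the mean ± SD of 5. Uhrf1 overlaps between the groups, while Dnmt1 over the replication genes is lower in all ATM-KO libraries and Uhrf1 over Dnmt1 is higher in all of them.

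Promoter sequences of Uhrf1 and Dnmt1 are shown because these are the genes that rose with the replication list. E2F factors are known to drive many S phase genes. RefSeq windows of 300 bases on GRCm38.p6, 250 before and 50 from each annotated start, were found for all 7 genes (12 windows). Searched on both strands, the E2F-type letters TTTCGCGC or TTTGGCGC, whose matches on opposite strands can overlap in their shared ending, occurred in 0.813% of 32851 windows. Among the 7 genes they occurred in 1 window of Dnmt1 and 1 window of Uhrf1. They also occurred in 9 of 28 replication genes with a window (32.1%), and in 0.929% of all 27025 genes with one. Other letters were searched too. GGGCGG, in 35.7% of all windows, occurred in all 7 genes. CCAAT, in 37.4%, occurred in Dnmt1, Uhrf1 and the falling Tet3, and CACGTG, in 7.15%, in Dnmt3a. The stretches of 30 bases around the E2F-type matches are printed on the strand of the gene, with the matched letters in capitals.
Uhrf1, chr17:56304117-56304146, plus strand: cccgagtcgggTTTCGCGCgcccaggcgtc
Dnmt1, chr9:20952824-20952853, minus strand: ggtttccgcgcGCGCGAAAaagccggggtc
Dnmt1, chr9:20952574-20952603, minus strand: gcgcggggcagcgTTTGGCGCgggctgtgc
Counted from the annotated start, the Uhrf1 match begins at base -185. The first Dnmt1 match reads on the opposite strand, begins at base -219 and lies in exon sequence of a longer annotated transcript. The second Dnmt1 match begins at base 34 of the transcript. Each match is a description of letters and not evidence of binding.

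The de novo methyltransferase gene Dnmt3a fell. It held 1011, 698, 834, 1089 and 728 normalized counts in ATM-KO libraries A11 to A15, and 1865, 1164, 1281, 1474 and 1159 in ATM-WT libraries A1 to A5. The groups were adjacent without overlap, since ATM-KO library A14 lay just under ATM-WT libraries A5 and A2. The means of 872 ± 172 in ATM-KO and 1389 ± 295 in ATM-WT (SD, n = 5 each) gave a log2 fold change of -0.67 ± 0.16 (limma adjusted p = 0.0049). The antisense gene Dnmt3aos overlaps it and averaged 3.08 over all libraries. No label says whether the authors' counting used strand.

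Dnmt3b, the second de novo enzyme gene, was the one member not called. Its normalized counts were 136, 149.6, 148, 164 and 174 in ATM-KO libraries A11 to A15, against 59.3, 219, 189.8, 70.5 and 52.4 in ATM-WT libraries A1 to A5. The ATM-KO values were close together, whereas ATM-WT libraries A2 and A3 were above all of them and A1, A4 and A5 were below all of them. The coefficient of variation was 9.61% in ATM-KO and 67.4% in ATM-WT. The log2 fold change was 0.64 ± 0.39, with a 95% interval of -0.21 to 1.49 (limma adjusted p = 0.20). Without ATM-WT library A2 it was 0.93 and was called (limma adjusted p = 0.040, with alternatives spanning 0.019 to 0.40). Without ATM-WT library A5 it was 0.42 and not called (limma adjusted p = 0.40).

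The balance of the 2 de novo genes is given by their ratio. The log2 ratio of Dnmt3b over Dnmt3a averaged -2.47 ± 0.34 in ATM-KO and -3.78 ± 1.13 in ATM-WT (SD, n = 5 each). The difference of 1.31 did not pass (exact permutation p = 0.063, adjusted p = 0.087). Without ATM-WT library A2 it was 1.65 with an adjusted p of 0.025 (exact permutation test, alternatives spanning 0.025 to 0.15). Relative to the replication genes, Dnmt3a fell by 1.69 (exact permutation p = 0.0079, adjusted p = 0.015), and Dnmt3b had a difference of -0.38 (exact permutation p = 0.40, adjusted p = 0.44). Both values include the rise of the replication genes themselves (median log2 fold change 1.03). The Dnmt3b value rested on single ATM-WT libraries, at -0.11 without A3, -0.17 without A2 and -0.63 without A5, and passed in none of these.

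Among the erasers, Tet1 had by far the largest fold change of the 7 genes and the lowest level. Normalized counts of Tet1 were 7.52, 0, 2.10, 16.0 and 4.08 in ATM-KO libraries A11 to A15, against ATM-WT values in A1 to A5 of 43.6, 112, 24.7, 137 and 60.7. Tet1 was listed at 0 in ATM-KO library A12, and the highest ATM-KO library, A14, was below the lowest ATM-WT library, A3. The log2 fold change was -3.78 ± 0.74, with a 95% interval of -5.39 to -2.16 (limma adjusted p = 0.0012). With 5 or 0.1 added to each count in place of 1, it was -2.835 or -4.618, so its size depends on that constant. Only 4.54% of all genes tested had a log2 fold change of larger size. By the rough worth of 1 read, these values stood for about 0 to 17.9 reads in ATM-KO libraries and 24.8 to 165 reads in ATM-WT libraries, so counting error is large in ATM-KO.

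Within ATM-WT, Tet1 ran nearly in the order of the epithelial markers. Libraries A4, A2, A5, A1 and A3, from the highest Tet1 downwards, had summed epithelial marker levels of 196333, 248527, 151905, 93987 and 91412. Other marker sums ran nearly the other way, so the order was not particular to epithelial markers. In the same library order, 12 fibroblast markers summed to 296839, 193337, 294002, 629060 and 654443. The sums of 19 leukocyte markers were 7343, 6126, 12044.5, 13836.5 and 12205. In ATM-KO the epithelial marker sums were 2911 to 4748 and had no such order, and library A12, with the highest of these sums, was the one with Tet1 at 0. The part of the epithelial markers in the Tet1 difference was not tested. Without ATM-WT libraries A2 and A4 the Tet1 log2 fold change was -3.14 (limma adjusted p = 0.0091, alternatives spanning 5.1e-04 to 0.0091).

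**Figure D3:**
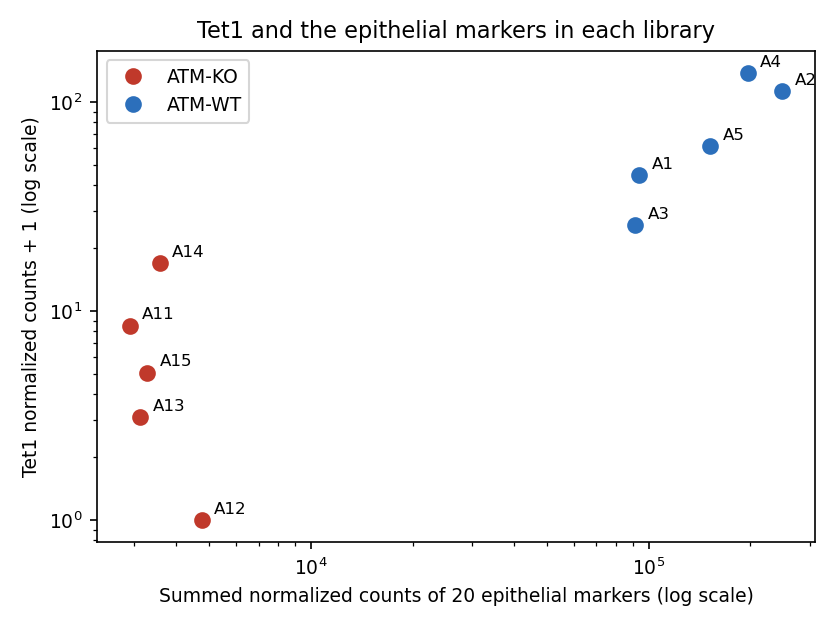
Tet1 normalized counts plus 1 against the summed normalized counts of 20 epithelial markers in each library, both on log scales, with ATM-KO in red and ATM-WT in blue. The ATM-KO libraries sit at low levels of both, with marker sums of 2911 to 4748, and the ATM-WT libraries at high levels of both, with sums of 91412 to 248527.

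Tet2 and Tet3 had much higher levels per kb of exon than Tet1 and fell by smaller amounts. Tet2 held 633, 702, 773, 786 and 733 normalized counts in ATM-KO libraries A11 to A15, and 1171, 1347, 1224, 1649 and 1116 in ATM-WT libraries A1 to A5. The groups were far apart, and A4 and then A2 were the highest ATM-WT libraries. The means of 725 ± 61.7 in ATM-KO and 1302 ± 212 in ATM-WT (SD, n = 5 each) gave a log2 fold change of -0.83 ± 0.12 (limma adjusted p = 1.2e-04). Without ATM-WT libraries A2 and A4 the Tet2 log2 fold change was -0.69 and remained called (limma adjusted p = 3.0e-04, alternatives spanning 1.1e-04 to 5.9e-04). TET2 is best known for its loss in blood cancers. The summed level of 19 leukocyte markers overlapped between the groups, at 10815 to 14429 in ATM-KO and 6126 to 13837 in ATM-WT, although single markers did not overlap.

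Tet3 held 1912, 1856, 1739, 1545 and 1645 normalized counts in ATM-KO libraries A11 to A15, against 2359, 3257, 1976, 2870.02 and 2261 in ATM-WT libraries A1 to A5. The groups did not overlap, but ATM-KO library A11 was close to ATM-WT library A3. Tet3 averaged 1739 ± 149.8 in ATM-KO and 2544 ± 513 in ATM-WT (SD, n = 5 each), a log2 fold change of -0.53 ± 0.13 (limma adjusted p = 0.0054). This difference was also of ordinary size, since 49.1% of all genes tested had a larger one. Like Tet1 and Tet2, Tet3 was highest in ATM-WT libraries A2 and A4. Without both, its log2 fold change was -0.34 and remained called (limma adjusted p = 0.018, alternatives spanning 0.0015 to 0.018), a smaller difference by more than 1.5 times.

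The erasers did not fall alike. The log2 ratio of Tet1 over Tet2 averaged -7.27 ± 1.53 in ATM-KO and -4.33 ± 0.84 in ATM-WT (SD, n = 5 each), a difference of -2.94 (exact permutation p = 0.016, adjusted p = 0.025). The groups overlapped slightly, since ATM-KO library A14 lay above ATM-WT library A3. The difference was -2.445 without ATM-WT libraries A2 and A4 and no longer passed (exact permutation test, adjusted p = 0.074, alternatives spanning 0.012 to 0.074). With 5 or 0.1 added to each count in place of 1, it was -2.006 or -3.784. For Tet3 over Tet2 the means were 1.26 ± 0.24 in ATM-KO and 0.96 ± 0.22 in ATM-WT, and the difference of 0.30 did not pass (exact permutation p = 0.079, adjusted p = 0.097). Without ATM-WT library A2 that difference was 0.38 and passed (exact permutation test, adjusted p = 0.039, alternatives spanning 0.039 to 0.20). Relative to the replication genes, the log2 differences were -4.80 for Tet1, -1.85 for Tet2 and -1.55 for Tet3 (exact permutation p = 0.0079 and adjusted p = 0.015 for each). Each of these differences includes the rise of the replication genes themselves (median log2 fold change 1.03), which a gene of unchanged level would show as a fall.

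**Figure D4:**
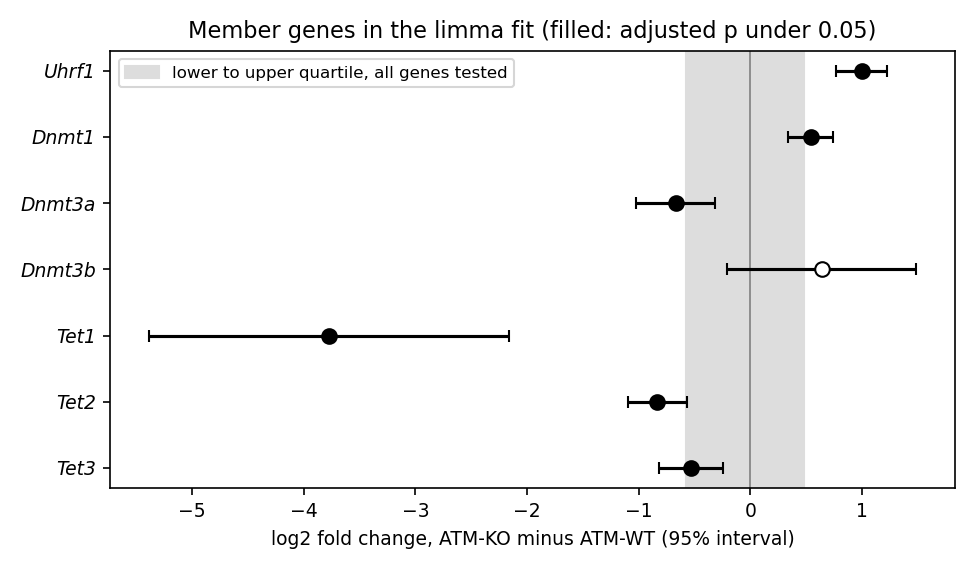
Log2 fold change of each gene, ATM-KO minus ATM-WT, with its 95% interval from the limma fit. Filled points passed an adjusted p of 0.05, and the grey band runs between the quartiles of all genes tested, -0.57 and 0.48. Uhrf1 and Dnmt1 lie above 0, Dnmt3a and the TET genes lie below 0, and the interval of Dnmt3b crosses 0. The Tet3 point lies inside the grey band.

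The window before a start site is also where CpG methylation is most studied, so CpG content is given for the erasers and Uhrf1. The Tet2 window held 57 CpG in 300 bases, more than 99.8% of all windows, and the Tet3 window held 22. The Tet1 window held 17, against a median of 7 over all windows. The TET windows, and the Uhrf1 window printed below, lie inside the annotated gene (GENCODE M21), whose outermost start is further upstream. Of the 250 bases before the Tet1 start, 100 are annotated exon. The 250 bases before the start of Tet2 and of Uhrf1, a falling and a rising gene, are printed on the strand of the gene with each CpG in capitals, 51 and 30 of them.
Tet2, chr3:133544391-133544640, minus strand: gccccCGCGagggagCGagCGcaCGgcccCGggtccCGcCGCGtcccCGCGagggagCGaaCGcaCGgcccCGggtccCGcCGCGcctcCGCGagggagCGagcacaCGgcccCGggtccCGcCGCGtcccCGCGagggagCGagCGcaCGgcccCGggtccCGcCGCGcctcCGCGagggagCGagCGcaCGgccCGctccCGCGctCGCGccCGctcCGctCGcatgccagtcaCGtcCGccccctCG
Uhrf1, chr17:56304063-56304312, plus strand: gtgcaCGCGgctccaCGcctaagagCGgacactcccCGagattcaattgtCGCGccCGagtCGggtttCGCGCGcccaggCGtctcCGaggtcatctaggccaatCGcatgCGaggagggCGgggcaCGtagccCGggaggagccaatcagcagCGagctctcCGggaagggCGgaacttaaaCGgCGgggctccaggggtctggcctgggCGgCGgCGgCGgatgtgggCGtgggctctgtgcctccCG
The methylation state of these CpG was not measured in the files used here.

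Levels were compared between genes only per kb of annotated exon (GENCODE M21, all exons of a gene merged), which need not be the authors' annotation. The order was the same in both groups, with Uhrf1 first, then Dnmt1, Tet3, Dnmt3a, Tet2, Dnmt3b and Tet1. Uhrf1 averaged 653 ± 50.1 normalized counts per kb in ATM-KO and 328 ± 45.7 in ATM-WT, and Dnmt1 399 ± 34.4 in ATM-KO and 275 ± 24.6 in ATM-WT. Uhrf1 and Dnmt1 were separate in ATM-KO. Their ranges overlapped in ATM-WT, but within each ATM-WT library Uhrf1 was above Dnmt1. Tet3 averaged 104 ± 8.97 per kb in ATM-KO and 152 ± 30.7 in ATM-WT. Dnmt3a (52.4 ± 10.4 per kb in ATM-KO and 83.4 ± 17.7 in ATM-WT) and Tet2 (43 ± 3.66 in ATM-KO and 77.2 ± 12.6 in ATM-WT) overlapped in both groups. Within libraries, Dnmt3a was above Tet2 throughout ATM-KO, narrowly in A12 and A15, but below it in ATM-WT libraries A2 and A4. These genes therefore cannot be ranked. Tet1, at 0.384 ± 0.405 per kb in ATM-KO and 4.88 ± 3.05 in ATM-WT, was the lowest in every library.

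Other genes of the pathway were read from lists chosen with earlier results known. Of 13 further methylation factors tested, 1 rose, 2 fell and 10 were not called. That is 23.1% called, below the 46.4% of all genes tested. The median was 0.00, as over all genes. Hells, a nucleosome remodeller that aids maintenance methylation, rose most (4064 ± 320.3 in ATM-KO and 1217 ± 245 in ATM-WT, log2 fold change 1.76 ± 0.13, limma adjusted p = 8.6e-07), and only 1 of the 34 replication genes had a larger fold change. The imprint-protecting zinc finger gene Zfp57 fell (240.2 ± 10.7 in ATM-KO and 492 ± 117 in ATM-WT, -0.995 ± 0.18), as did Dmap1, a DNMT1-associated protein gene (-0.39 ± 0.13, limma adjusted p = 0.024). The Dmap1 call was lost without ATM-KO library A11 (limma adjusted p = 0.056) or A13 (0.061), which left 1 gene lower, and also without ATM-WT libraries A2 and A4 (0.091) and after quantile normalization (0.19). Setd2, an H3K36 methyltransferase gene, had a log2 fold change of 0.25 ± 0.16 and was not called. Uhrf2, the paralog of Uhrf1, averaged 1933 ± 122 in ATM-KO and 2134.5 ± 242 in ATM-WT and was not called either.

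Demethylation partners went both ways. Of 18 tested, 5 rose and 7 fell, a share of 66.7% called, against 46.4% of all genes tested, with a median of -0.38. Idh2, which makes the alpha-ketoglutarate that TET enzymes need, rose (3746 ± 297 in ATM-KO and 2309 ± 207 in ATM-WT, 0.70 ± 0.09). The uracil glycosylase gene Ung also rose (633 ± 25.6 in ATM-KO and 383 ± 69.2 in ATM-WT, 0.74 ± 0.13). The repair polymerase gene Polb fell (630.2 ± 54.9 in ATM-KO and 1069 ± 201 in ATM-WT, -0.74 ± 0.14), and so did Rybp, a Polycomb partner gene (975 ± 75.4 in ATM-KO and 1362.5 ± 66.1 in ATM-WT, -0.48 ± 0.09). Limma adjusted p was at most 7.3e-04 for these 4.

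Readers of methylated CpG were split evenly, with 3 higher and 3 lower of 9 (66.7% called, against 46.4% of all genes tested, 22.1% higher and 24.3% lower) and a median of 0.08. Zbtb38, a zinc finger reader gene, rose (1714 ± 206 in ATM-KO and 815 ± 191 in ATM-WT, 1.10 ± 0.16). Its relative Zbtb4 fell (608 ± 52 in ATM-KO and 1116 ± 312 in ATM-WT, -0.83 ± 0.18). Mbd6, a methyl-CpG-binding domain gene, fell by 0.60 ± 0.14 on the log2 scale. Limma adjusted p was at most 0.0038 for these 3 genes.

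Genes of methyl donor supply were split too, with 4 higher and 4 lower of 13 (61.5% called, against 46.4% of all genes tested) and a median of 0.43. Ahcy, which clears the inhibitory product of methyl transfer, rose (5495 ± 134 in ATM-KO and 2625 ± 854 in ATM-WT, 1.12 ± 0.17, limma adjusted p = 1.9e-04). Its relative Ahcyl1 rose by 0.46 ± 0.09, the methionine synthase reductase gene Mtrr by 0.77 ± 0.20 and the adenosine kinase gene Adk by 0.71 ± 0.19. These counts depended on single libraries. Without ATM-WT library A2, 7 donor genes were called higher, and without ATM-WT library A5 or ATM-KO library A13 or A14, 2 were called lower.

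**Figure D5:**
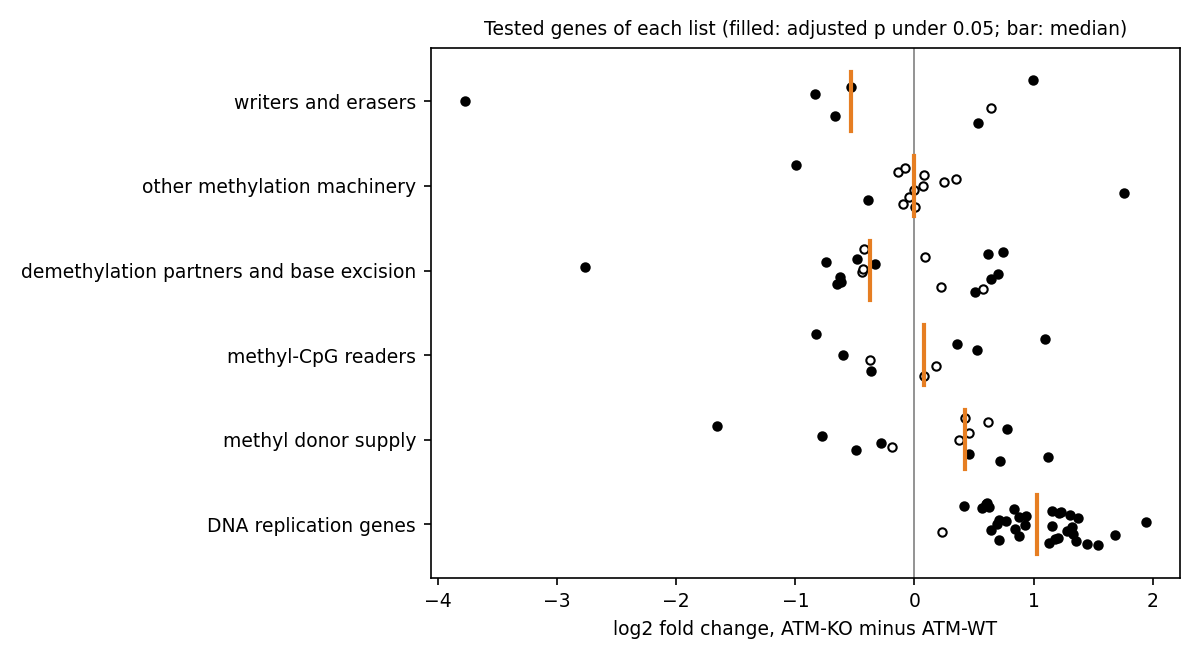
Log2 fold change, ATM-KO minus ATM-WT, of every tested gene in the 7 writers and erasers, the 4 related lists and the replication list. Filled points passed an adjusted p of 0.05, and bars are medians. The replication genes all lie above 0, with a median of 1.03, while the other lists spread to both sides.

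Markers of other cell types differed in how far they moved with the groups. The share called was 75% of fibroblast, 56.25% of leukocyte and 20% of endothelial markers tested, against 100% of epithelial markers. Of all genes tested, 46.4% were called, 22.1% higher and 24.3% lower, so the leukocyte share was near that of all genes and the endothelial share below it. Of 12 fibroblast markers, 0 rose and 9 fell (median -1.49), with summed levels of 52522 to 139595 in ATM-KO and 193337 to 654443 in ATM-WT, and none was at 0 in any library. The smallest p among them was that of Dpt, a matrix protein gene (-5.07 ± 0.45, limma adjusted p = 2.9e-06). Of 16 leukocyte markers tested, 5 rose and 4 fell (median 0.54), but 3 rose without any one of libraries A2, A4, A11, A13 or A15. The 4 with the smallest p were apart between the groups. Itgax and Flt3, genes of dendritic cells, averaged 2657 ± 367 and 419 ± 32.4 in ATM-KO, against 857 ± 154 and 36.2 ± 29 in ATM-WT. The B cell gene Cd79a averaged 234 ± 23 in ATM-KO and 20.8 ± 17.4 in ATM-WT, and the neutrophil gene S100a8 averaged 253 ± 124 in ATM-KO and 692 ± 74.1 in ATM-WT. Of 10 endothelial markers, 1 rose and 1 fell (median 0.07), with 2 higher without A1 and 0 lower without A3, A11 or A12. Among epithelial markers the median was -6.07, and -5.79 without the 3 listed at 0 in ATM-KO, where for example Krt19 averaged 10.2 ± 3.17 in ATM-KO and 10238 ± 4181 in ATM-WT. The part of these lists in the differences of the 7 genes was not tested.

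For each member, the 3 genes closest to it were found by the mean absolute difference between log2 profiles, each centred on its own mean over the 10 libraries, among genes with a mean of at least 50. Uhrf1 was closest to Ghitm (0.05), Pole3 (0.06) and Rangap1 (0.06). Dnmt1 was closest to Rtcb (0.06), Usp47 (0.06) and Nus1 (0.07), and Tet2 to Brpf3 (0.06), Trp53bp2 (0.08) and Siah1a (0.09). The neighbours of Tet3 were Adi1 (0.05), Fam32a (0.06) and Mknk2 (0.07), and those of Dnmt3a were Kmt2e (0.08), Hectd4 (0.10) and Zhx3 (0.11). Distances were larger for the genes with scattered values. Dnmt3b was closest to Tmem29 (0.26), Cdca2 (0.32) and Tdrd7 (0.32), and Tet1 to Prkcz (0.42), Atp8b1 (0.51) and Cmtm8 (0.53). Candidates numbered 12676, or 12677 for Tet1, and a close profile says nothing of shared function or control.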

How the data were processed

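Tumour RNA of 5 ATM-KO and 5 ATM-WT samples was deposited by the authors as a single table of normalized counts, a non-negative signal per gene. The submitters' processing notes name STAR, Salmon and DESeq2 without roles or versions, and neither build nor annotation is known from them. Column names carry a genotype and a library number. Sample labels lack that number, so columns were assigned to groups only. Of low values (at most 20 reads), 59.2% to 69.2% were whole multiples of the estimated worth of 1 read to a tolerance of 0.05, so no count model was run, and depths are rough.

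A mean of 10 or more was required of each gene, and log2(value + 1) was then tested by limma 3.58.1 under R 4.3.3 (eBayes with trend), two-sided, with Benjamini-Hochberg adjustment over 16517 genes. The procedure was tested on simulated data. Named genes were the 7 members, up to 4 genes per list with the smallest p, epithelial genes at 0 in a whole group, and the closest profiles. Of these, 1 gene is not reported here. Genes singled out otherwise (Gins4, Uhrf2, Dnmt3aos, Rhox5) were chosen after their values were seen. Of the 11 ratios, all were tested by exact permutation. The members and lists were chosen with earlier results of these data known. Tables were handled in Python 3.11.15 with pandas 2.3.3 and numpy 2.4.6, and figures drawn with matplotlib 3.10.9. Promoter sequences are from RefSeq, GRCm38.p6.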

Additional observations from a re-analysis of the deposited data

Results flagged for a closer look

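One value stood apart within its group. Uhrf1 had 1744 normalized counts in ATM-WT library A2, against 1285 to 1344 in the other ATM-WT libraries, a gap to the nearest library that took most of the range of the group (Dixon's test, critical value 0.71 for 5 samples). This was 1 of 14 groups checked, and chance flags about 1 in 20. A2 was also the shallowest library by the rough estimate, with 8.82 M (mega) reads, and had the highest summed replication gene level in ATM-WT (41542, against 28322 to 36315 in the others). The part of either in this value was not tested. Without A2 the Uhrf1 log2 fold change was 1.08.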

How the results depend on the processing

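The calls and directions of Uhrf1, Dnmt1, Dnmt3a, Tet2 and Tet3 held in all 21 alternatives, and those of Tet1 in all 20 in which it was tested (its mean is below 50). Alternatives covered the pseudocount, the filter, 3 scalings, the eBayes settings, array weights, each library left out in turn, and ATM-WT libraries A2 and A4 left out together. The cause was not tested for the changes that follow. Dnmt3b was called under quantile normalization (1.09) and array weights (0.98), and ranged from 0.42 to 0.93 with single libraries left out. Under quantile normalization Dnmt3b over Dnmt3a was 1.75, and Dnmt3b over the replication mean turned to 0.0426. Without A2 and A4, Tet1 over Tet2 was -2.445. With single libraries left out, Dnmt3b over Dnmt3a ranged from 1.02 to 1.65, Tet3 over Tet2 from 0.22 to 0.38, and Uhrf1 over the replication mean from -0.0691 to 0.0120, the last without A1. Counts of called list genes moved as follows. Germline genes higher were 1 with a mean of at least 50. Other methylation factors lower were 1 under quantile normalization, and 2 higher and 1 lower without A2 and A4. Methyl donor genes were 2 lower under eBayes without trend, 8 higher with array weights, and 7 higher and 2 lower without A2 and A4. Leukocyte markers higher were 3 under eBayes without trend and 3 without A2 and A4. With single libraries left out, other methylation factors lower ranged from 1 to 2, donor genes from 4 to 7 higher and 2 to 4 lower, germline genes from 1 to 2 higher, leukocyte markers from 3 to 6 higher, and endothelial markers from 1 to 2 higher and 0 to 1 lower. No paired analysis was possible because the columns carry library numbers that the sample labels do not give. Depth limits Tet1 most, since its ATM-KO values rest on few reads.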

Other observations

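Germline genes whose promoters are known to be silenced by DNA methylation in somatic mouse cells were looked up as a list chosen with earlier results known. Of 30 genes, 13 had a row in the table and 6 were high enough to test. Of these 6, 2 rose, 1 fell and 3 were not called, a share of 50% called, near the 46.4% of all genes tested. Both that rose, Rhox10 and Tex101, were high enough to test only through their ATM-KO values, so the count says nothing of the list as a whole. For the same reason their p-values are not given as support.

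Rhox10, a homeobox gene of the X-linked germline cluster with close copies that can share reads, held 845, 1246, 1057, 1110.1 and 1107 normalized counts in ATM-KO libraries A11 to A15, against 3.51 in ATM-WT library A1 and 0 in A2 to A5. Every ATM-KO library was far above every ATM-WT library. Tex101, a germ cell surface protein gene, held 5.11, 7.39, 2.28, 90.1 and 13.4 in ATM-KO libraries A11 to A15 and was listed at 0 in every ATM-WT library. Without ATM-KO library A14 its mean fell below 10, so it was not tested and 1 gene of the list was called higher. Brdt, a testis bromodomain gene, went the other way, at 37 ± 14.5 in ATM-KO and 114 ± 31.3 in ATM-WT (SD, n = 5 each, log2 fold change -1.64 ± 0.32, limma adjusted p = 0.0012). Tdrd1, a germline piRNA pathway gene, had 0 in all ATM-KO libraries and was too low to test. Rhox5, of the same cluster as Rhox10, averaged 603 ± 246 in ATM-KO and 795 ± 1016 in ATM-WT and was not called (limma adjusted p = 0.53). Its fitted log2 fold change of 0.70 ± 0.86 has the opposite sign to the difference of those means, and the ATM-WT values were widely scattered.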
